A study of Mus musculus with 6 samples.

Results

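Expression of 9 genes of coagulation and fibrinolysis (F3, Thbd, Plat, Plau, Plaur, Tfpi, Procr, F13a1 and Vwf) was examined in whole lungs of TNF+ and TNF- mice. The genes were taken by their symbols from the deposited count table, which held 49568 symbols. All 9 were present, and all 9 passed edgeR's filter on low counts which left 19199 genes to test. TNF+ mice (TNF-Tg in the labels) overexpress a human TNF transgene present as one copy, and TNF- mice (WT) are their littermates without it. All 6 mice, 3 of each genotype, were females of 4 months of age on a C57BL/6 background, and each lung gave 1 library. The promoter of the transgene is not given in the sources used here. The human transgene has no row among these mouse symbols, so the genotype could not be checked by its target. The mouse gene Tnf had 106, 213 and 405 raw counts in TNF+ replicates 1, 2 and 3 and 16, 14 and 35 in TNF- replicates 1, 2 and 3. Whether these include reads of the transgene was not tested.

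Clotting in vessels begins when tissue factor, the product of F3, meets factor VII of the plasma, and it is held back by tissue factor pathway inhibitor (Tfpi). On the endothelial surface thrombomodulin (Thbd) and the endothelial protein C receptor (Procr) bind thrombin and protein C and turn thrombin into an anticoagulant enzyme. Von Willebrand factor (Vwf) tethers platelets and carries factor VIII, and factor XIII A chain (F13a1) crosslinks fibrin. Fibrin is removed by plasmin, which tissue-type (Plat) and urokinase-type (Plau) plasminogen activators release from plasminogen, the latter at its receptor on the cell surface (Plaur). The lung, with its large capillary bed, is known for a high content of thrombomodulin and von Willebrand factor.

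Total counts per lung lay between 25396923 and 32529408, and 3 counts, the smallest number taken as detected, correspond to 0.0882 to 0.131 CPM (counts scaled to the library's size), a floor for counting error only. The defining genes of lung epithelium were present in every lung, with summed levels of 16700 to 21900 CPM for 8 markers in TNF+ and 34100 to 41300 CPM in TNF- lungs. A pair of libraries stood apart. TNF+ replicate 1 had 5.22% of its counts on the single gene Gm42418, against 0.0774% to 0.274% elsewhere. TNF- replicate 1 carried genes of squamous epithelium, with 8 markers summing to 3590 CPM against 11.6 to 33.3 CPM in the other lungs, and of skeletal muscle (8 markers, 1960 CPM against 15.6 to 48.3 CPM). Fat cell markers (5 genes) summed to 4.62 and 3.76 CPM in TNF+ replicates 1 and 2 and to 34.1 to 68.7 CPM in the other lungs. Values without the first lung of each genotype are given where they matter.

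Between TNF+ and TNF- lungs 6 of the 9 genes differed at an adjusted p under 0.05 in edgeR's quasi-likelihood test (66.7%). Among all genes tested this share was 47.4%, so a large part of the transcriptome differed as well. Vwf, Thbd, F3 and Plat were lower in TNF+ lungs (4 of 9, against 23.4% of all genes), and Procr and Plau were higher (2 of 9, against 24.0%). Tfpi, Plaur and F13a1 did not pass the test. The median log2 fold change was -0.23 over the 9 genes and 0.03 over all genes tested. For 7 of the 9 genes, the 6 named and Tfpi, normalized counts (counts scaled to the same library size) did not overlap between the genotypes, against 58.7% of all genes. DESeq2, the program the study names, called the same 6 genes. Without TNF+ replicate 1 and TNF- replicate 1 together, 5 were called, all but Plat, beside 6064 of all 19440 genes tested in that fit.

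**Figure D1:**
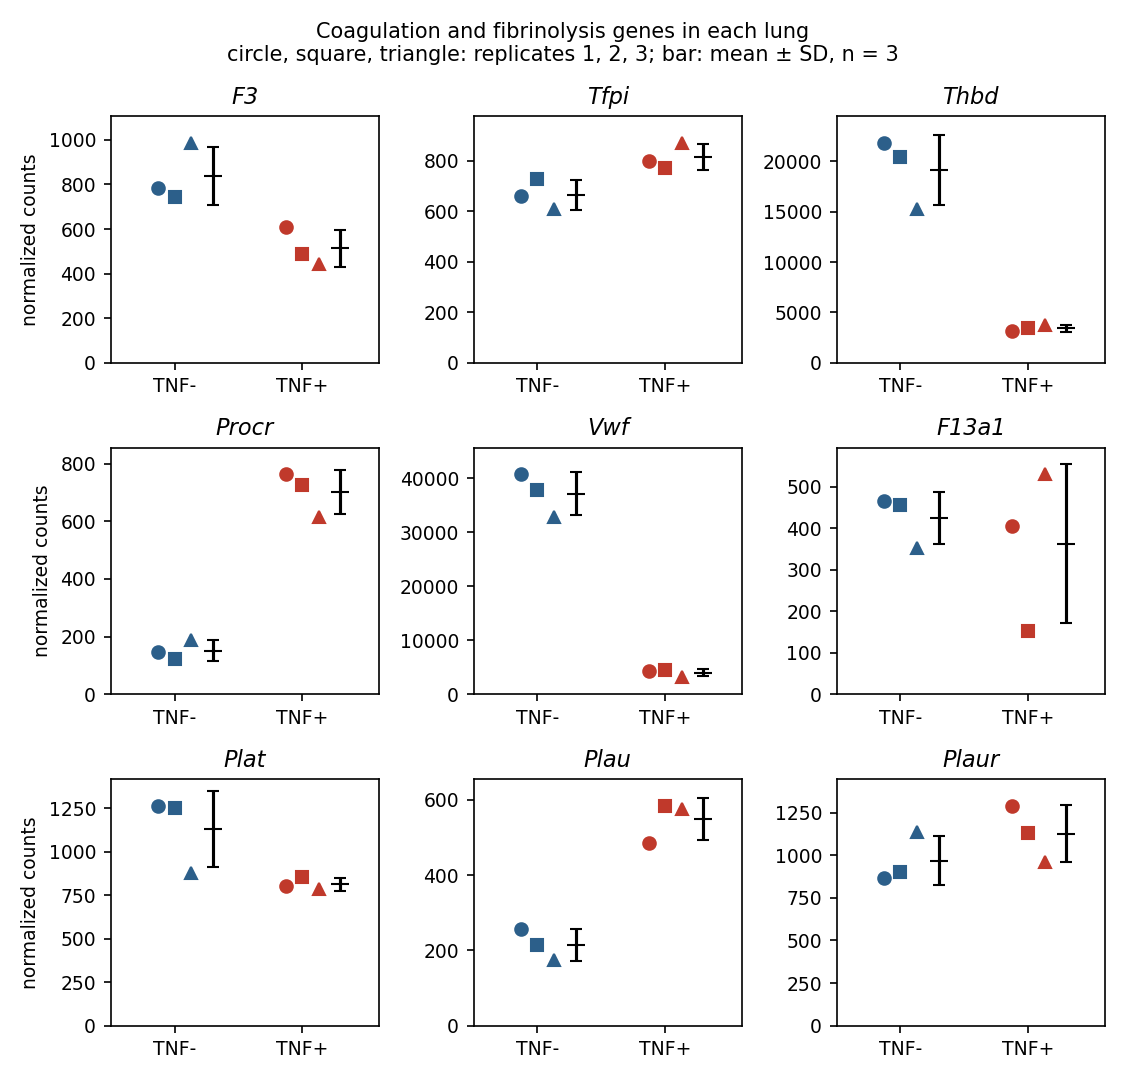
Normalized counts (vertical axis, starting at 0) of each gene in the 3 TNF- lungs (blue) and the 3 TNF+ lungs (red); black bars are the mean ± SD of each genotype. Vwf and Thbd stand far lower and Procr and Plau far higher in every TNF+ lung, while the lungs of both genotypes overlap for Plaur and F13a1.

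F3 (ENSMUSG00000028128.13, chromosome 3 of mm10, 121723537 to 121735048, plus strand) encodes tissue factor, the starter of clotting, which lung epithelium and perivascular cells are known to hold. Its normalized counts were 608, 487 and 445 in TNF+ replicates 1, 2 and 3 and 784, 744 and 987 in TNF- replicates 1, 2 and 3. Every TNF+ lung lay under every TNF- lung. The log2 fold change of -0.71, with a standard error (SE) of 0.16 and an adjusted p of 0.00765, corresponds to a level 1.64-fold lower in TNF+ lungs. Leaving out TNF- replicate 1, the lung with squamous genes, gave -0.78 (adjusted p = 0.0115). Of the 8 epithelial markers 7 were lower in TNF+ lungs too, with a median log2 fold change of -1.39, and all but Sftpc passed the test. Their part in the fall of F3 was not tested.

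Tfpi (ENSMUSG00000027082.15, chromosome 2, 84432855 to 84476775, minus strand), whose product blocks the complex of tissue factor and factor VII, stood at 798, 773 and 871 normalized counts in the TNF+ lungs. In the TNF- lungs it had 659, 728 and 609. The groups did not overlap, but the rise of 1.22-fold was small and missed the threshold (log2 fold change 0.29, SE 0.11, adjusted p = 0.0609). Taken as the difference of log2 CPM within each lung, F3 minus Tfpi was -0.67 ± 0.29 (SD, n = 3) for TNF+ and 0.32 ± 0.34 (SD, n = 3) in TNF- lungs. Tissue factor transcripts thus fell relative to those of its inhibitor by 1.00 on the log2 scale, with no overlap between lungs (exact permutation test, two-sided, p = 0.1, which 3 lungs against 3 cannot go below).

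A promoter window from 250 bases before to 50 bases after the RefSeq start was at hand for 5 of the 9 genes (F3, Plaur, Tfpi, Procr and F13a1). The windows of F3 and Procr are printed because these are the members with a window that passed the test, and they went in opposite directions. Letters were searched on both strands for a TATA box (TATAAA), a GC box (GGGCGG), AP-1 (TGANTCA), NF-kB (GGGNNTTCC), ETS factors (CCGGAAG) and KLF factors (CACCC), and matches are in capitals. The sequences are RefSeq's for GRCm38.p6, whose coordinates are those of mm10, 5′ to 3′ on the plus strand, at chr3:121723287-121723586 for F3 and chr2:155750967-155751266 for Procr.
F3: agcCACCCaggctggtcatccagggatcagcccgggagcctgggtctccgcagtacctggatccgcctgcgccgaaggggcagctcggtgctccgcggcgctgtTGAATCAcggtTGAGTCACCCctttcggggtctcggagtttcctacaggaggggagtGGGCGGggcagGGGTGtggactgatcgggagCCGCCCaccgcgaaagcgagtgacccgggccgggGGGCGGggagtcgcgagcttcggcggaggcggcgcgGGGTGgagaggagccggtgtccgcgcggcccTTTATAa
Procr: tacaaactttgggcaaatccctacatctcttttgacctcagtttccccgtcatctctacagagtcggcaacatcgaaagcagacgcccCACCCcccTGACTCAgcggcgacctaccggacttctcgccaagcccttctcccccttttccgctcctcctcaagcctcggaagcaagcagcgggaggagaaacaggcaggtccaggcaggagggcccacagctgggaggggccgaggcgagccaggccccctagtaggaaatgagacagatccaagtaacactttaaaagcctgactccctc
In the F3 window AP-1 letters stood at -146 and -135 bases from the start base, GC boxes at -89, -58 and -24, and the KLF letters in 4 places, of which the one at -130 overlaps an AP-1 match. The TATA letters at 43 lie after the start. The Procr window held 1 AP-1 match at -154 and 1 KLF match at -162. Neither held the NF-kB or ETS letters as spelled above, which says only that these letters are absent from the windows. Sites of another spelling or length were not searched for, so the windows may hold them. Of 32851 such windows of mouse genes, 7.81% held the AP-1 letters, 35.7% the GC box, 57.5% the KLF letters, 13.6% the TATA letters, 5.82% the NF-kB letters and 8.86% the ETS letters. The window of Plaur held AP-1 letters as well, at -69, and Plaur did not pass the test. A match is a description of letters and not a bound site. The RefSeq start of Procr used here (155751217) lies inside the gene as GENCODE M21 draws it.

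The receptor pair of the protein C pathway moved in opposite directions. Thbd (ENSMUSG00000074743.4, chromosome 2, 148404466 to 148408188, minus strand) had 3118, 3438 and 3807 normalized counts in TNF+ lungs. The TNF- lungs had 21852, 20447 and 15244, so even the lowest of them was far above all TNF+ lungs. Thbd was 5.55-fold lower in TNF+ lungs (log2 fold change -2.47, SE 0.17, adjusted p = 2.1e-05). Procr (ENSMUSG00000027611.12, chromosome 2, 155751117 to 155755471, plus strand), whose product presents protein C to thrombomodulin, had 763, 727 and 616 normalized counts in TNF+ lungs and 145, 121 and 189 in TNF- lungs. It was 4.62-fold higher (log2 fold change 2.21, SE 0.19, adjusted p = 5.76e-05), again with no overlap. Within a lung, log2 CPM of Thbd exceeded that of Procr by 6.97 ± 0.57 (SD, n = 3) in TNF- lungs and by 2.30 ± 0.30 (SD, n = 3) in TNF+ lungs. The difference between genotypes was -4.67 in log2 units, the largest shift of the 3 gene pairs compared (exact permutation test, p = 0.1).

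Vwf (ENSMUSG00000001930.17, chromosome 6, 125546774 to 125686679, plus strand), made by endothelial cells and megakaryocytes, showed the greatest fall of the 9 genes. Its normalized counts were 4238, 4533 and 3206 in TNF+ lungs and 40786, 37881 and 32846 in TNF- lungs. This is 9.31-fold lower in TNF+ lungs (log2 fold change -3.22, SE 0.18, adjusted p = 9.31e-06), and the log2 fold change stayed between -3.32 and -3.10 when any single lung was left out. A stretch of 100 bases or more at 95% identity or above to other transcripts was found for Vwf only among the 9 genes, and the longest, with Slc7a14, was 186 bases.

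Markers of the cells that make Vwf and Thbd were lower as well. Of 10 endothelial markers 9 were lower and 1, Emcn, was higher (log2 fold change 0.93), and their summed level was 1810 to 2090 CPM in TNF+ against 3730 to 4220 CPM in TNF- lungs. In bulk lung, fewer cells of a type and less RNA per cell cannot be told apart. The median endothelial marker fell by 1.16 on the log2 scale, less than Thbd or Vwf. Set against the mean log2 CPM of these markers in the same lung, Vwf went from 1.93 ± 0.11 (SD, n = 3) in TNF- to -0.18 ± 0.37 (SD, n = 3) in TNF+ lungs, and Thbd from 0.96 ± 0.23 to -0.38 ± 0.10 (SD, n = 3 each). Both thus lay lower beside the markers, by 2.11 and 1.34. Procr rose beside them by 3.33, Tfpi by 1.41 and Plat by 0.66 (1.04 against the median of the markers). Plat, which was lower in the lung as a whole, thus fell less than the mean or the median of the endothelial markers. This does not hold for each of them, as Emcn was higher. None of these 5 differences overlapped between genotypes (exact permutation test, p = 0.1 for each). Endothelial cells are mixed, and the marker Ramp2 fell by 2.49 on the log2 scale, about as much as Thbd. Procr was not set beside the 10 macrophage markers, which were all higher in TNF+ lungs (median log2 fold change 2.65), and their part in its rise was not tested.

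Platelet genes were lower as well. Of 9 platelet markers 8 were lower in TNF+ lungs, with a median log2 fold change of -3.17, close to that of Vwf, and their sum was 80.4 to 104 CPM against 172 to 242 CPM. The exception was Pf4, a chemokine of platelet granules, which was higher (log2 fold change 1.75). Pf4 made up 74.7% to 78.9% of the sum in TNF+ lungs and 8.4% to 11% in TNF- lungs, and without it the other 8 markers summed to 17.0 to 26.1 CPM against 154 to 222 CPM. Relative to the mean of these 9 markers, Vwf was 5.60 ± 0.18 (SD, n = 3) log2 units above in TNF+ and 6.29 ± 0.35 (SD, n = 3) above in TNF- lungs, a difference of -0.69. Against the median of the markers in place of their mean, the difference was -0.25 and the genotypes overlapped (exact permutation test, p = 0.6). How much the endothelial and the platelet markers each bear on the fall of Vwf was not tested.

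F13a1 (ENSMUSG00000039109.16, chromosome 13, 36867178 to 37050244, minus strand), the fibrin crosslinking enzyme of platelets and macrophages, had 406, 153 and 531 normalized counts in TNF+ lungs. The TNF- lungs had 465, 457 and 352. The groups overlapped, TNF+ replicate 2 being the low one, and there was no call (log2 fold change -0.23, SE 0.38, adjusted p = 0.652). Without TNF+ replicate 2 the log2 fold change was 0.14 (adjusted p = 0.59). All 10 macrophage markers rose, with a median log2 fold change of 2.65 and sums of 10900 to 12100 CPM in TNF+ against 2980 to 3050 CPM in TNF- lungs. F13a1 did not follow them. Against their mean log2 CPM it stood at -2 ± 0.39 (SD, n = 3) for TNF- and -5.16 ± 1.06 (SD, n = 3) in TNF+ lungs. Against the platelet markers it was 2.15 higher in TNF+ lungs, with no overlap in either case (exact permutation test, p = 0.1 for each). F13a1 is overlapped by the antisense genes Gm49144 and Gm30489, which have no row in the count table, and the strand setting of the counting is not stated.

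The activators of plasminogen diverged. Plat (ENSMUSG00000031538.6, chromosome 8, 22757727 to 22782844, plus strand), the activator that endothelium releases into blood, had 800, 852 and 783 normalized counts in TNF+ and 1265, 1251 and 880 in TNF- lungs. The genotypes did not overlap, though TNF- replicate 3 came near the TNF+ lungs. Plat was 1.39-fold lower (log2 fold change -0.48, SE 0.15, adjusted p = 0.0277). This call was lost, with adjusted p between 0.0575 and 0.0948, when any lung other than TNF- replicate 3 was left out, and without that lung the adjusted p was 0.00146.

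Plau (ENSMUSG00000021822.3, chromosome 14, 20836660 to 20843385, plus strand), the activator that works at cell surfaces during cell migration, had 485, 585 and 577 normalized counts in TNF+ lungs and 258, 215 and 173 in TNF- lungs. It was 2.55-fold higher (log2 fold change 1.35, SE 0.17, adjusted p = 0.000457) without overlap. Its receptor gene Plaur (ENSMUSG00000046223.10, chromosome 7, 24462484 to 24475968, plus strand) had 1291, 1127 and 960 against 866, 904 and 1134 normalized counts. The genotypes overlapped and no change was detected (log2 fold change 0.22, SE 0.15, adjusted p = 0.255). Plau minus Plaur in log2 CPM was -1.03 ± 0.35 (SD, n = 3) for TNF+ and -2.17 ± 0.49 (SD, n = 3) in TNF- lungs, so enzyme transcripts gained on receptor transcripts. Beside the macrophage markers, both lay lower in TNF+ lungs, Plau by a difference of -1.41 and Plaur by -2.55. Exact permutation tests gave p = 0.1 for each of these, and adjusted over all 13 differences compared within lungs every p stayed at 0.1.

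**Figure D2:**
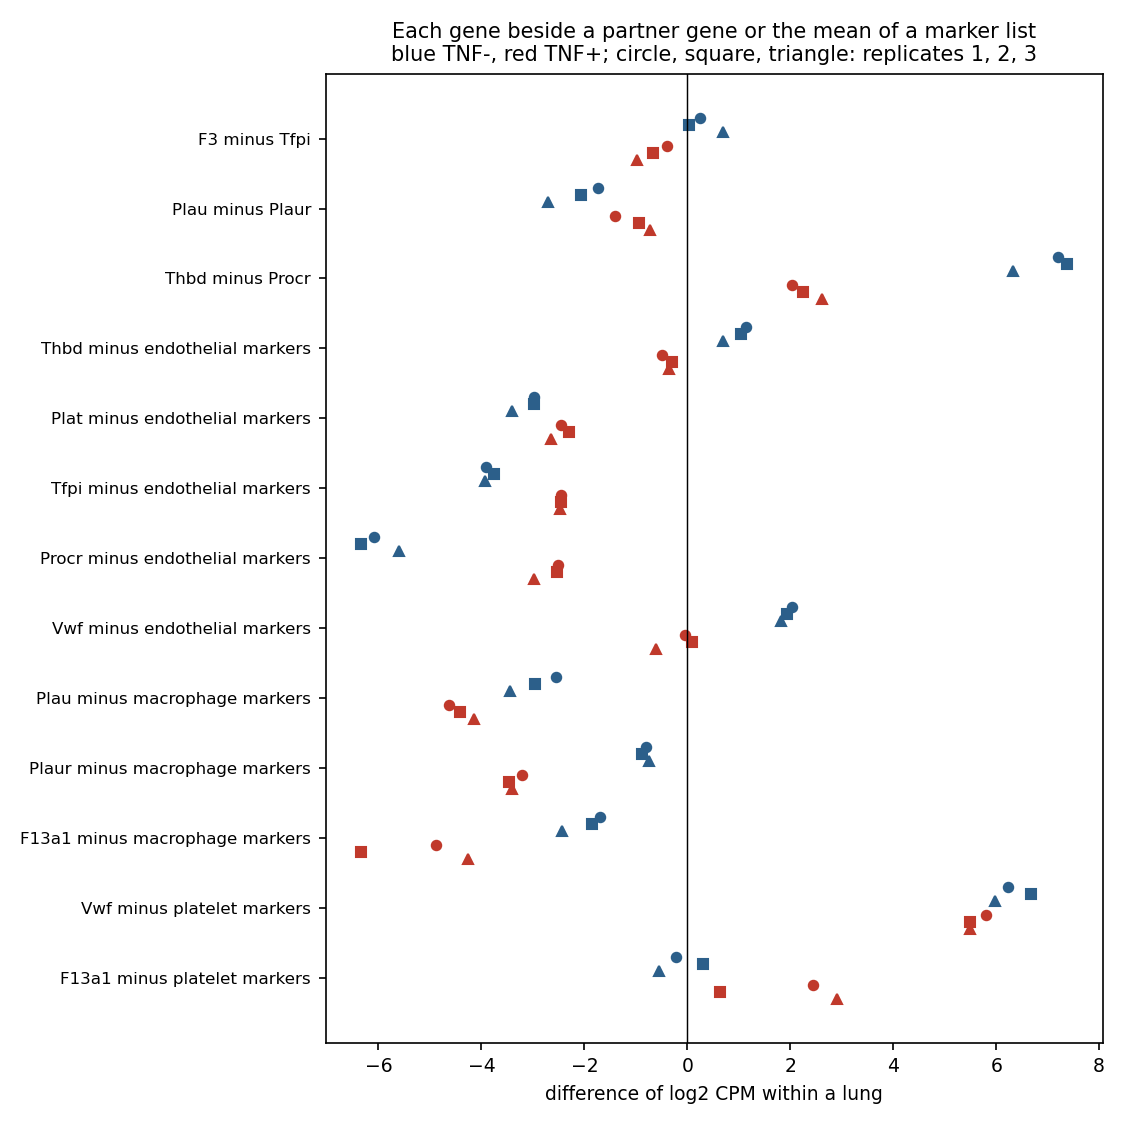
Differences of log2 CPM within each lung (horizontal axis) between a gene and its partner gene, or the mean of a list of cell markers; each point is 1 lung, blue TNF- and red TNF+. With the mean of each list, the genotypes do not overlap in any of the 13 differences, and the widest shifts are those of Thbd minus Procr (-4.67) and of Procr beside the endothelial markers (3.33).

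Compared per length, as CPM per kilobase of exon, the order of the genes changed with genotype. In TNF- lungs Thbd (170 ± 30.9, SD, n = 3) and Vwf (126 ± 13.6) came first and overlapped each other, far above Plaur (21.3 ± 3.19). Plat (14.8 ± 2.86) and F3 (14.8 ± 2.31) followed together. Tfpi (4.16 ± 0.376), F13a1 (3.51 ± 0.523), Procr (3.14 ± 0.719) and Plau (3.04 ± 0.599) closed the order, and neighbours among these 4 overlapped. In TNF+ lungs Thbd was still first at 30.7 ± 3.06 (SD, n = 3), but it overlapped Plaur (24.7 ± 3.63). Procr came next at 14.5 ± 1.59 and overlapped Vwf at 13.5 ± 2.36. Plat (10.6 ± 0.474), F3 (9.07 ± 1.5) and Plau (7.76 ± 0.784) each overlapped the neighbour above, and Tfpi (5.09 ± 0.321) and F13a1 (3.00 ± 1.59) were last. A span from 3.04 to 170 in TNF- lungs thus became one from 3.00 to 30.7. These lengths are those of GENCODE's basic transcripts and weigh on the order between genes, not on the differences between genotypes.

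**Figure D3:**
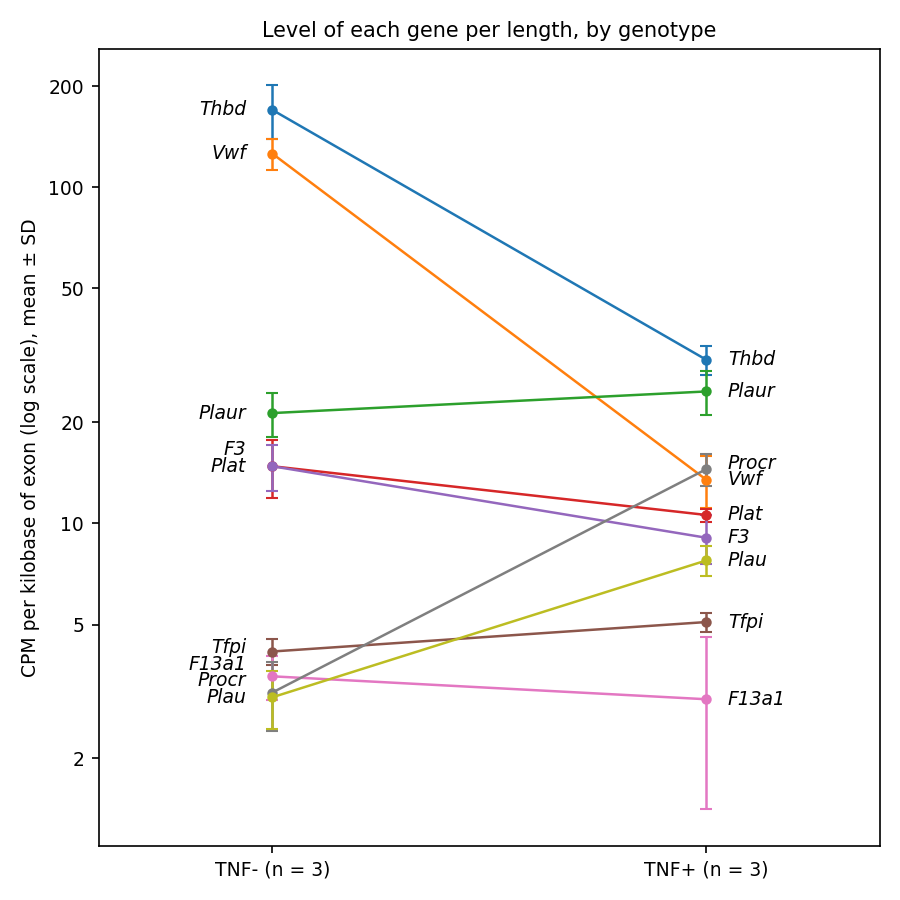
Mean CPM per kilobase of exon (log axis) of the 9 genes in TNF- and TNF+ lungs, with bars of 1 SD over 3 lungs. Thbd and Vwf drop towards the other genes, and Procr climbs from 3.14 to 14.5.

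Other genes of the cascade were followed in lists by role. Of 15 other clotting factors, many of them made mainly by liver, 9 passed the filter, and 3 were higher, 1 was lower and 5 did not pass the test (median log2 fold change 0.70). The 4 of 9 called stand against 47.4% of all genes tested. F8, the gene of the factor that Vwf carries, missed the threshold (log2 fold change 0.70, adjusted p = 0.0519) and was called higher without TNF+ replicate 2 and with the filter of at least 10 counts in every lung, under which Fga was not tested. F10, the factor X gene, had 1017, 1322 and 1065 normalized counts in TNF+ lungs and 148, 193 and 259 in TNF- lungs (log2 fold change 2.5, SE 0.21, adjusted p = 5.97e-05). The fibrinogen chains Fgg and Fga were at low level and also higher, with Fgg at 170 ± 45.5 against 39.8 ± 2.07 (SD, n = 3) and Fga at 53.6 ± 18.4 against 10.9 ± 3.02 (SD, n = 3), with log2 fold changes of 2.09 and 2.29. The third chain, Fgb, had 2 counts in 1 lung and 0 in the other lungs. F5, the cofactor of factor X, was lower at 140, 172 and 105 against 951, 494 and 635 normalized counts (log2 fold change -2.32, SE 0.28, adjusted p = 0.000332). F7, whose product pairs with tissue factor, did not differ detectably (log2 fold change 0.15, adjusted p = 0.399). All 10 macrophage markers were higher (median log2 fold change 2.65), and of 9 platelet markers 8 were lower and 1 was higher (median -3.17). The part of these cells in the values of the clotting factors was not tested.

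Of 9 other inhibitors of clotting, 8 were tested, 3 were higher and 1 was lower (median log2 fold change 0.77), so 4 of 8 were called against 47.4% of all genes. Pros1, protein S, the cofactor of activated protein C, was lower with 1378, 1283 and 1551 against 2454, 2393 and 1983 normalized counts (log2 fold change -0.70, SE 0.12, adjusted p = 0.00172). Serpind1, heparin cofactor II, was higher with 285, 167 and 193 against 59.3, 52.7 and 48.0 (log2 fold change 2.00, adjusted p = 0.000384). Serpina10 and Serpinc1, with log2 fold changes of 1.61 and 1.55, had means of at most 33.1 normalized counts in either genotype, and neither was called with the replicate number as a block, without TNF+ replicate 1, without TNF+ replicate 2 or without TNF- replicate 2, where 2 genes of the list were called. Serpina10 also lost its call without TNF- replicate 1, and Serpinc1 without TNF- replicate 3 and with DESeq2. Proc, protein C itself, had 14.8 ± 5.25 normalized counts in TNF+ against 24.1 ± 3.71 (SD, n = 3) in TNF- lungs. The lungs did not overlap, and Proc did not pass the test (log2 fold change -0.69, SE 0.35, adjusted p = 0.135).

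The family of protease-activated receptors, which holds the thrombin receptors, has 4 genes, all tested. Of these 2 were lower and none was higher (median log2 fold change -0.62), against 47.4% of all genes called. F2rl1, whose product answers to trypsin-like proteases and not to thrombin, had 181, 201 and 159 against 381, 363 and 363 normalized counts (log2 fold change -1.04, SE 0.14, adjusted p = 0.000665), and F2rl2 had a log2 fold change of -0.94 (adjusted p = 0.0105), a call lost without TNF+ replicate 1 and TNF- replicate 1 together. F2r, the main thrombin receptor by count, stood at 3927 ± 293 in TNF+ and 4862 ± 845 (SD, n = 3) in TNF- lungs and did not pass edgeR's test (adjusted p = 0.105). F2r was called by DESeq2, and by edgeR without TNF- replicate 3, which makes 3 lower genes in each.

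Of 10 other fibrinolysis genes, 6 were tested, and Plgrkt, a plasminogen receptor, was higher while none was lower (median log2 fold change -0.05), 1 of 6 against 47.4% of all genes. DESeq2 also called Anxa2, as lower. Plgrkt had 1462, 1446 and 1571 against 666, 868 and 840 normalized counts (log2 fold change 0.92, SE 0.12, adjusted p = 0.000525). Serpine2, a serpin that inhibits thrombin and urokinase, was level at 3500 ± 390 and 3504 ± 420 (SD, n = 3). Plg, the source of plasmin, had 2, 1 and 0 counts in TNF+ and 3, 2 and 0 in TNF- lungs, at or under the floor.

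**Figure D4:**
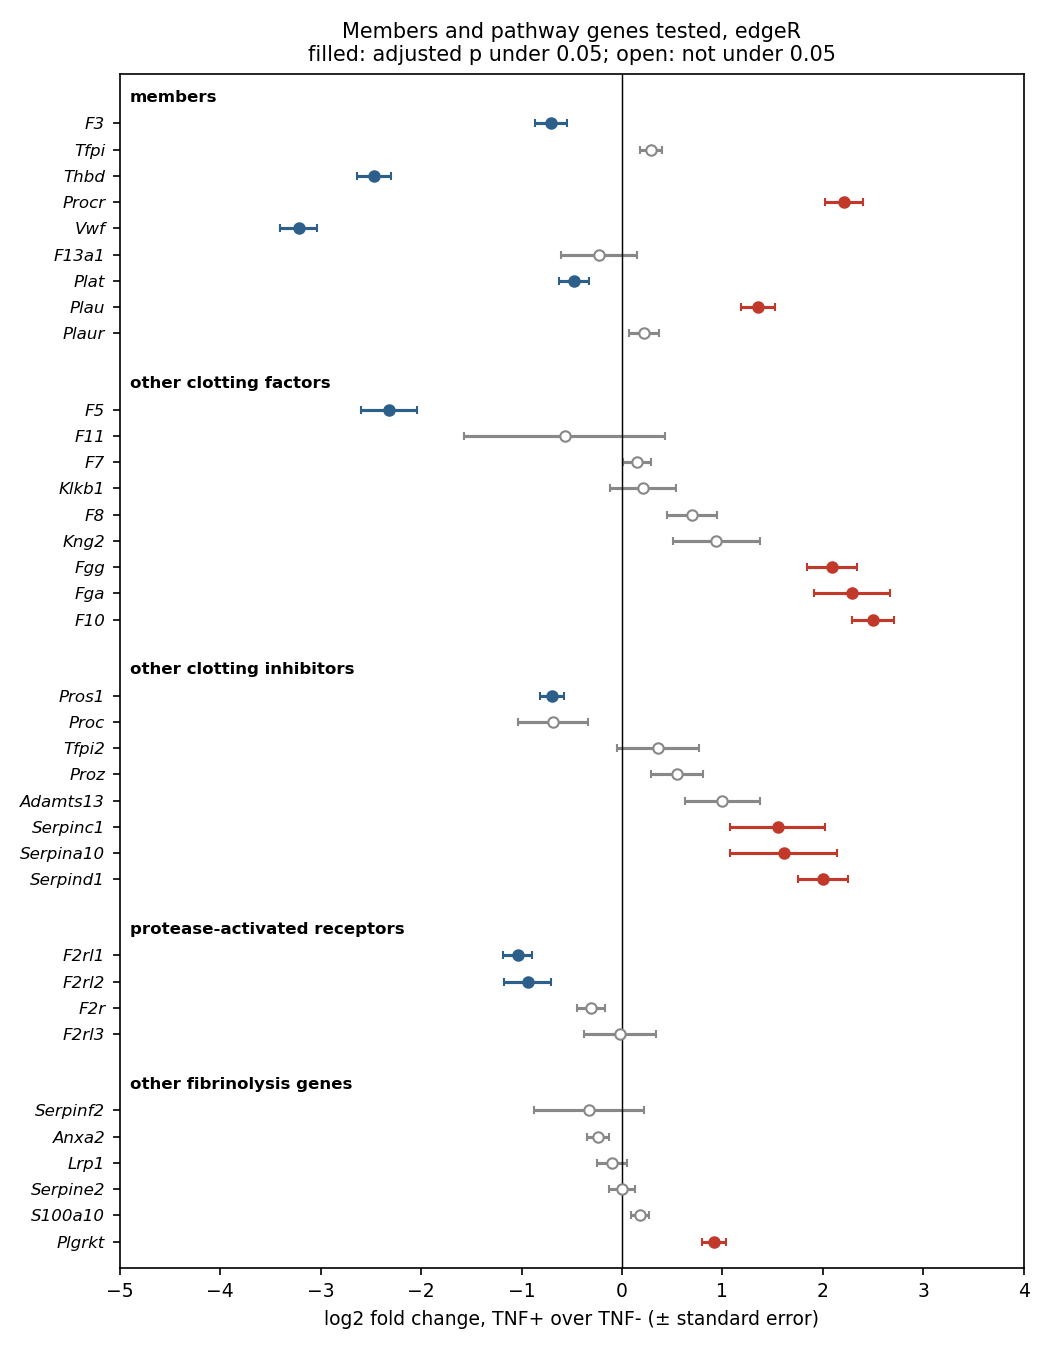
Log2 fold change of TNF+ over TNF- lungs with its standard error (horizontal axis) for each tested gene of the 9 and of the pathway lists; filled points had an adjusted p under 0.05. Vwf, Thbd and F5 lie furthest to the left, and F10, Fga and Procr are among those furthest to the right.

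Genes with the pattern most like each member were sought among 13383 tested genes whose mean log2 CPM was 1 or more, as the smallest Euclidean distance over the 6 lungs between centred log2 CPM. For Vwf this was Frem1 (distance 0.299), with 40.9, 42.4 and 31.2 normalized counts in TNF+ and 381, 388 and 264 in TNF- lungs. For Thbd it was Epha1 (0.212), for Procr C3 (0.215) and for Plau Arrdc4 (0.175). F3 was most like Pdpn (0.146), Plat most like Tulp4 (0.0624), Tfpi most like Rrm1 (0.0746) and Plaur most like Thoc3 (0.137). The nearest gene to F13a1, Rasgrp4, was further off (0.579).

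Markers of the remaining cell types, given for completeness beside these results, were mesenchymal (6 genes, 3 lower, sums of 1050 to 1060 CPM in TNF+ against 1290 to 2020 CPM in TNF- lungs) and mesothelial (5 genes, 3 lower, 90.1 to 162 CPM against 168 to 299 CPM). Mesothelium and fibroblasts are known to express several of the 9 genes, and their part in the results was not tested.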

How the data were processed

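Poly(A) RNA of 6 whole lungs was sequenced by the study as single-end reads from stranded libraries. Reads were trimmed with Trimmomatic and aligned to mm10 by STAR (version 2.5.2b), and the authors deposited raw, unscaled counts, a whole number of reads for every gene symbol in every lung. The submitters' processing notes name featureCounts and, for Trimmomatic, version 0.36. The strand setting and gene annotation of the counting are not given in the sources used here.

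Genotypes were compared in edgeR (version 4.0.16, run in R version 4.3.3): filterByExpr, TMM scaling, a quasi-likelihood test of genotype without covariates, and Benjamini-Hochberg adjustment over all 19199 genes tested, at 0.05. A standard error is the size of the log2 fold change divided by the square root of F. Log2 CPM used a prior count of 2. Positions came from GENCODE M21 (mm10), which held all listed symbols. Differences within lungs were compared by two-sided exact permutation tests. The programs were tested on simulated data. The 9 genes and all lists were chosen with earlier results of these data known. Genes were named by a set rule: the 9 members, up to 4 called genes of each pathway list with the largest changes, Plg, and the most like gene of each member. Emcn, Ramp2, Pf4, Itga2b, Col1a1, Sftpc, Fgb, F7, F8, Proc, F2r, Serpine2, Anxa2, Tnf and Gm42418, and all genes of the lists on endothelial transcription factors, Weibel-Palade bodies and plasminogen activator partners, were named after their values were seen. Values of 1 gene of these lists are not reported here, and it was left out of its list's counts and of the differences within lungs.

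Other settings tried were DESeq2 (version 1.42.0), limma-voom (limma version 3.58.1), other scalings and filters, the replicate number as a block, lungs left out and a minimum fold change. Replicates of one genotype differed beyond sampling noise (chi-square per degree of freedom 53.7 to 140). The sources used here state no pairing of the mice that share a number.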

Additional observations from a re-analysis of the deposited data

How the results depend on the processing

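F3, Thbd, Plau, Procr and Vwf kept their direction and call under the 14 alternatives with a fold change of their own, and Tfpi kept its direction without a call. With 1 lung left out, Plat ranged from -0.64 to -0.41 and lost its call in 5 of 6 fits. F13a1 ranged from -0.62 to 0.14, reversed at 0.14 without TNF+ replicate 2. Without both libraries that stand apart, Plat had -0.42 (adjusted p = 0.142 by edgeR), and Plaur reversed to a value that rounds to 0 (adjusted p = 0.988). In that fit 1 protease-activated receptor gene (F2rl1) and 2 other inhibitors were called, and 6064 of all 19440 genes tested. The cause of these shifts was not tested. The other inhibitors also counted 2 with at least 10 counts in every lung, where only 4 of them were tested, and 2 to 4 with 1 lung left out. A minimum absolute log2 fold change of 1 left 4320 genes (1980 higher and 2340 lower), 4 members (2 higher and 2 lower, with F3 and Plat under the minimum), 1 protease-activated receptor gene and 0 other fibrinolysis genes (Plgrkt, the 1 called before, lies under this minimum). DESeq2 called 2 other fibrinolysis genes, Plgrkt higher and Anxa2 lower. A replicate block by mouse number gave 7686 called genes, the same 6 members (Vwf at -3.23, adjusted p = 0.00025 by edgeR) and 2 other inhibitors. Deviations from the genotype mean gave correlations over genes of -0.15, 0.00 and -0.24 for same-numbered lungs and of -0.06 to 0.21 for the others. Deviations from a mean of 3 lungs are tied to each other, so these values cannot show whether the numbers mark a pairing. All 101 alternatives of the 13 within-lung differences kept the direction, but Vwf beside the median platelet marker overlapped between genotypes (-0.25, exact permutation test, p = 0.6), and Plat beside the median endothelial marker rose to 1.04. At this depth genes at or under 3 counts in every lung, such as Plg, could not be compared.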

Other observations

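Transcription factors of endothelium, listed after results were seen, were lower in 5 of 8 cases and higher in 1, with a median log2 fold change of -0.65. Of all genes tested 23.4% were lower and 24.0% higher. Of the 10 endothelial markers 9 were lower, with a median log2 fold change of -1.16, further from 0 than that of the factors, and the part of these cells in the factors' values was not tested. Gata2 had 1100, 1248 and 1194 normalized counts in TNF+ and 4765, 5036 and 4904 in TNF- mice (log2 fold change -2.05, SE 0.09, adjusted p = 4.99e-06 by edgeR). Klf2, a factor of blood flow sensing, had 3544, 2366 and 2260 against 6627, 6362 and 7224 (log2 fold change -1.31, adjusted p = 0.00063), and Klf4 had a log2 fold change of -0.72 (adjusted p = 0.00382). Erg fell by 0.58 and Foxf1 by 1.16 on the log2 scale. Fli1 was higher (log2 fold change 1.09), and Sox17 and Sox18 did not pass the test.

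A list chosen the same way held genes taken as partners of Vwf in the Weibel-Palade body, the storage granule of endothelium, or in its release. It also held Mmrn2 (log2 fold change -0.06), which is not a known product of this granule. Of the 8 genes 2 were higher and 2 lower (median log2 fold change 0.02), so 4 of 8 were called against 47.4% of all genes tested. Mmrn1, multimerin, and Rab27a, a GTPase of granule release, were lower, with log2 fold changes of -0.78 (adjusted p = 0.0227) and -0.38 (adjusted p = 0.0139 by edgeR). Selp, P-selectin, had 198, 126 and 193 normalized counts in TNF+ and 149, 134 and 147 in TNF- lungs (adjusted p = 0.327), and Angpt2 had 510 ± 107 against 473 ± 8.42 (SD, n = 3, adjusted p = 0.598 by edgeR). Cd63, a tetraspanin of granule membranes, and Stxbp5, a syntaxin-binding protein, were higher, with log2 fold changes of 1.22 and 0.35 (adjusted p = 0.0392 for Stxbp5 by edgeR). All 10 macrophage markers were higher too (median log2 fold change 2.65), and of 9 platelet markers 8 were lower and 1 was higher (median -3.17). The part of macrophages and platelets in the values of this list was not tested. A list of 8 partners of the plasminogen activators was also drawn up after results were seen, so its share cannot be read as an excess. Of these 8 genes 5 were lower and none was higher (median log2 fold change -0.72), against 23.4% of all genes lower. Mrc2, a collagen receptor that joins the complex of Plau and Plaur, had 1780, 1555 and 1779 against 4758, 6450 and 4694 normalized counts (log2 fold change -1.64, SE 0.15, adjusted p = 7.51e-05), and Itgb3 and Vtn, an integrin chain and its ligand vitronectin, had log2 fold changes of -0.90 and -0.89. Itgb3 pairs in platelets with Itga2b, a platelet marker that had a log2 fold change of -3.09, and of the 6 mesenchymal markers 3 were lower (Col1a1 -1.34). St14 and Lrp2 were called lower too, with log2 fold changes of -0.75 and -0.68. Of the 8 epithelial markers 7 were called lower (median log2 fold change -1.39), and of the 10 endothelial markers 9 were lower and 1 was higher (median -1.16). The part of these cell types in the values of the plasminogen activator partners was not tested.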
